A study of Mus musculus with 2 samples.

Results

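The steroid 5α-reductases of the mouse are the products of 3 genes, Srd5a1, Srd5a2 and Srd5a3, and they were examined here in long-read RNA-seq of the adrenal gland. The genes were picked by symbol, with earlier results of these data in view and mainly for the level and the splice forms of Srd5a2, so that their levels are given as a description and not as a test. They are 3 of the 13453 annotated genes with a read in replicate 1 and 3 of the 14138 in replicate 2. The tissue came from male B6CASTF1/J mice aged 36 days, which carry 1 genome of C57BL/6J origin and 1 of CAST/EiJ origin, without any treatment or engineered allele in the labels. Both libraries belong to this single group, so no condition is set against another. The labels disagree on whether the libraries come from the same animal or from different ones, so the spread between them may be technical in part.

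Steroid 5α-reductases use NADPH to remove the double bond next to the ketone of the steroid A ring. Testosterone becomes dihydrotestosterone, a more potent androgen, while progesterone and corticosteroids become metabolites that are cleared or feed the synthesis of neurosteroids. SRD5A2 is best known from the prostate and the male genital tract, and in humans its inherited loss impairs virilisation of the male genitalia. SRD5A1 is the isoenzyme known from liver, skin and brain. SRD5A3 takes part in the conversion of polyprenol to dolichol, the lipid on which N-glycans are built. In humans, loss of SRD5A3 causes a congenital disorder of glycosylation.

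Full-length molecules of Srd5a2 differed from the annotated transcript mainly by a gap of 59 bases in the last exon. The gene lies on chromosome 17 from 74016955 to 74047916 on the minus strand of mm10 (GENCODE M21), and its annotated transcript, Srd5a2-201, has 5 exons. The sequences that carry its splice forms are given first, 5′ to 3′ on the minus strand, as read from the GENCODE M21 transcript. Capitals mark the first and the last 15 bases of the gap (chr17:74017195-74017224 and chr17:74017136-74017165), the first 15 bases that are lost when an inner 5′ splice site of exon 1 is used (chr17:74047776-74047805), and the first 15 bases of the exon joined to exon 3 when exon 4 is kept or skipped (chr17:74024454-74024468 joined to chr17:74021520-74021534 or to chr17:74017758-74017772).
Start of the gap: ttttttcatatgcagGTTCTAGATTTTAAT
End of the gap: TATGTGTATGTTGAGggtcatatagttcat
Inner site of exon 1: tcccggtgctggcagGTAGCGCCACATTGG
Exon 3 to exon 4: acaggatcccacaagGTGGCTTGTTTACGT
Exon 3 to exon 5: acaggatcccacaagGTTCTACCTCAAGAT

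Srd5a2 was by far the most read of the 3 genes. It had 1404 reads in replicate 1 and 1337 in replicate 2, over all classes of read. As CPM, the usual scaling of a count by the library total, here of endogenous reads, this was 3103 and 2886 CPM, with a mean of 2995 ± 153 CPM (SD, n = 2), and the gene ranked 16 by reads in both libraries. Srd5a3, on chromosome 5 from 76140271 to 76155504 on the plus strand, had 13 and 10 reads, or 28.7 and 21.6 CPM. Srd5a1, on chromosome 13 from 69573449 to 69611442 on the minus strand, had 4 and 5 reads, or 8.84 and 10.8 CPM. These last values stand just above the floor of 3 counts, 6.63 CPM in the first library and 6.48 CPM in the second. The order Srd5a2, Srd5a3, Srd5a1 held in each library, with Srd5a2 well apart and the other two close to the limit of depth.

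Of the reads of the 3 genes, Srd5a2 took 98.8% in replicate 1 (Wilson 95% interval 98.1 to 99.3) and 98.9% in replicate 2 (98.2 to 99.3). It had 351 times the reads of Srd5a1 in replicate 1 (exact conditional 95% interval 137 to 1290) and 267 times in replicate 2 (114 to 825). Against Srd5a3 the ratio was 108 (62.9 to 203) in replicate 1 and 134 (72.5 to 279) in replicate 2. Per kilobase of the annotated transcript, the level of Srd5a2 was 1933 and 1798 CPM per kb, that of Srd5a3 16.4 and 12.4 CPM per kb, and that of Srd5a1 3.34 and 4.08 CPM per kb. For Srd5a2 the divisor was 1605 bases, whereas its model with most reads was recorded with 3610 and 3611 bases. A long read counts once whatever its length, so the values per kilobase are no better measure of level than CPM. Intervals and floors cover counting error only, because reads without molecular identifiers are not independent molecules. In a whole gland, fewer cells of a type and less RNA per cell cannot be told apart.

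**Figure D1:**
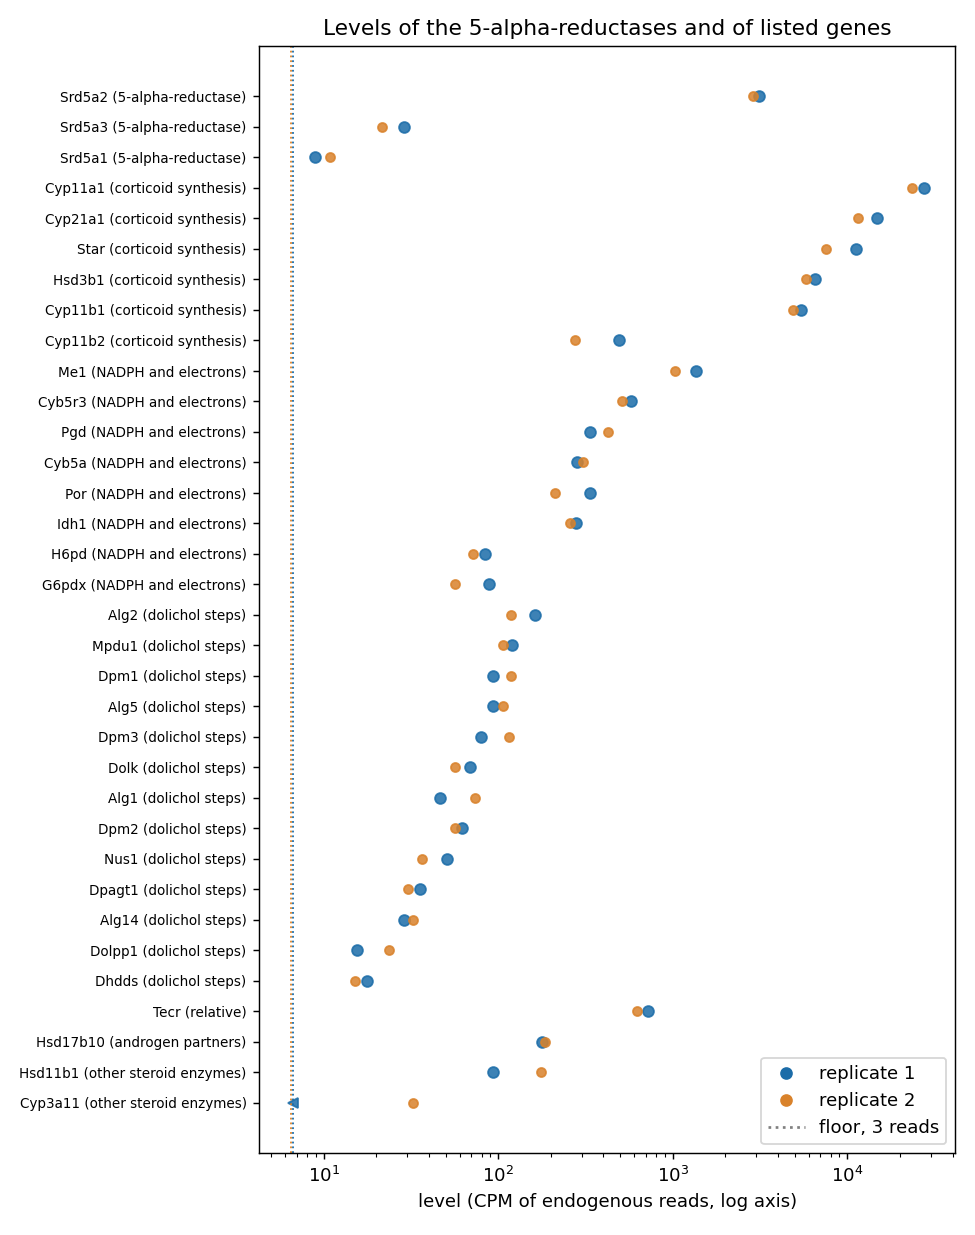
Levels in CPM of endogenous reads (log axis) of the 3 reductase genes and of the listed genes reported here with at least 10 reads summed, in replicate 1 (blue) and replicate 2 (orange), with the floor of 3 reads as dotted lines and a left-pointing mark for a count of 0. Srd5a2 sits at 3103 and 2886 CPM, while Srd5a3 and Srd5a1 stay between 8.84 and 28.7 CPM.

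The level of Srd5a2 was close between the libraries. Replicate 1 had 1.07 times the level of replicate 2 (exact conditional 95% interval 0.997 to 1.16), a log2 difference of 0.10, and the gene was not called (two-sided Fisher's exact test on 2 libraries, adjusted p = 0.319 over 8135 genes). Calls needed an adjusted p below 0.05 together with a 2-fold difference after 1 CPM was added, which held for 3.16% of the genes tested. Srd5a3 had a ratio of 1.33 with an interval of 0.539 to 3.39, and its adjusted p was 0.884 by the same exact test. Srd5a1 was under the minimum of 10 reads summed and was not tested. Such tests compare the reads of 2 libraries, not conditions.

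The 2 libraries differed in reads of other tissues. All 6 cortex marker genes had reads, with 59378 CPM summed in replicate 1 and 47702 CPM in replicate 2, and 1 of them, Nr5a1, was called higher in replicate 1. The 5 medulla markers summed to 10478 and 15399 CPM, and the 4 fat markers to 2749 and 4866 CPM, where Ucp1 was called lower in replicate 1. Pancreas acinar markers had 0 reads in replicate 1 and 2859 in replicate 2, with 8 of 8 called, and liver markers 3 and 238 reads, with 6 of 6 called. No read of the 5 male tract markers was found in either library, a tissue in which Srd5a2 is known to be expressed, and of the 4 kidney markers only Aqp2 had reads, 8 and 2. The X-zone markers, of the inner cortex of young mice, had 3 and 2 reads, with Pik3c2g at 0 in both. The part of these differences in the values of Srd5a2 was not tested.

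Reads fell into the classes of TALON, a program that compares each long read with annotated transcripts. A Known read follows every intron of an annotated transcript. ISM, for incomplete splice match, means that only some of these introns are covered. NIC reads recombine annotated splice sites, and NNC reads use 1 or more splice sites outside the annotation. In Srd5a2 the labels did not hold to the annotation alone. The model with the gap and without exon 4, with 30 and 39 reads, was labelled NIC, and some models with the gap were labelled ISM. Of the Srd5a2 reads, 571 in replicate 1 and 565 in replicate 2 were Known, 702 and 636 were NNC, 32 and 42 were NIC, and 99 and 80 were ISM. Genomic reads, which overlap a gene without its splicing, numbered 0 and 14. NNC reads were thus 50% of the gene's reads in replicate 1 and 47.6% in replicate 2, whereas the median over 1510 genes with at least 50 reads in each library was 1.46% and 1.32%. A higher NNC share was found in 9 of these genes in replicate 1 and in 11 in replicate 2. The Known share of 40.7% and 42.3% lay far below the medians of 90.2% and 88.9%.

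Full-length reads (Known, NIC and NNC together) were 92.9% of Srd5a2 reads in replicate 1 (Wilson 95% interval 91.5 to 94.2) and 93.0% in replicate 2 (91.5 to 94.2). This was near the medians over the same 1510 genes, 94.6% and 93.1%. The full-length share of Srd5a2 did not pass the test between the libraries (difference of -0.02 points, Fisher's exact test, adjusted p = 1), where 0.132% of genes were called at a difference of at least 10 points. The reads of Srd5a2 were sorted into 25 models in replicate 1 and 34 in replicate 2, and 7 and 18 of these held a single read. Of the unannotated intron chains, 15 were found in both libraries. They held 784 of 833 unannotated reads in replicate 1 (94.1%) and 742 of 772 in replicate 2 (96.1%).

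The leading form of Srd5a2 was an NNC model with the 4 annotated introns plus the gap in exon 5. It had 688 of 1305 full-length reads in replicate 1 (52.7%, Wilson 95% interval 50.01 to 55.4) and 612 of 1243 in replicate 2 (49.2%, 46.5 to 52.0). The annotated form, Srd5a2-201, had 571 reads (43.8%, 41.1 to 46.5) and 565 reads (45.5%, 42.7 to 48.2). The unannotated form led in both libraries, though in replicate 2 the intervals of the 2 shares overlapped. Its share did not pass the test between the libraries (3.48 points higher in replicate 1, Fisher's exact test, adjusted p = 1), where 0.227% of 1321 genes were called at a difference of at least 10 points. Together these 2 forms left few full-length reads for all others.

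A leading form with so small a share was uncommon. The median leading share over the 1321 genes with 50 or more full-length reads per library was 94.7% in replicate 1 and 95.0% in replicate 2, and 78 and 62 genes had a smaller one than Srd5a2. The leading form of a gene was the one with the largest sum of its shares in the 2 libraries. In 28 of these genes it was not annotated. Such a form need not lead in each library: that of Cyb561 had 88 of 157 full-length reads in replicate 1 and 0 of 72 in replicate 2. The leading form of Oaz1, the ornithine decarboxylase antizyme, had the most reads among the 28, 877 and 850, and that of Srd5a2 came next. Mpc1, a subunit of the mitochondrial pyruvate carrier, followed with 150 and 204 reads. Cyb561, Oaz1 and Mpc1 are named after their values were seen.

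**Figure D2:**
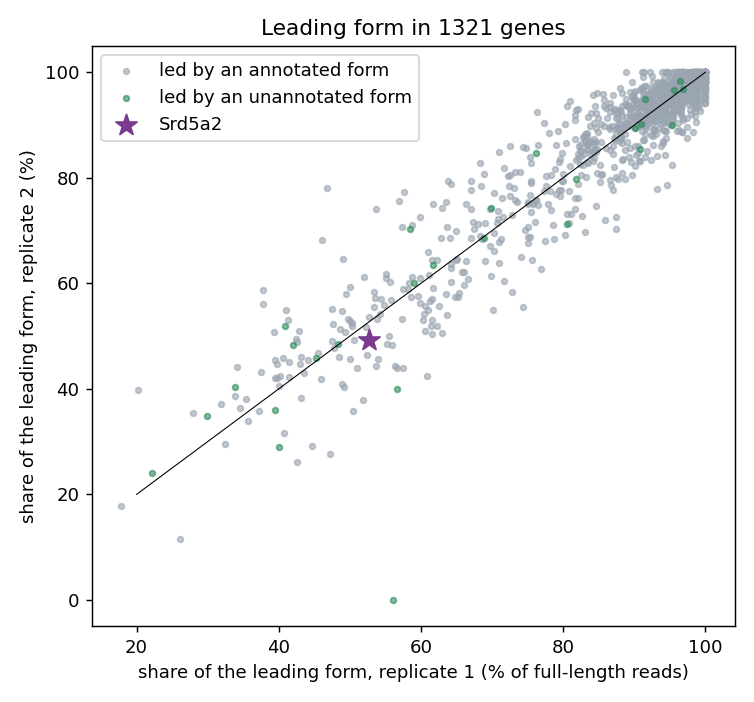
Share of the leading splice form among full-length reads (percent) in replicate 1 against replicate 2 for 1321 genes, grey where that form is annotated and green where it is not, with the line of equal shares. Srd5a2, the star, lies at 52.7% and 49.2%, apart from the bulk of genes near the medians of 94.7% and 95.0%.

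The gap ran from 74017151 to 74017209 on chromosome 17, inside exon 5 (74016955 to 74017772), and so within the 3′ untranslated region. It began 496 bases after the stop codon and left the 254 codons of the annotated reading frame as they are. On the transcript strand it began with GT and ended with AG, the bases at most intron ends, as the first pair of sequences shows. The alignment of the gap can slide by 3 positions without a change of the joined sequence. GT and AG are thus the ends in the recorded placement, and the choice among placements was not tested. Its bases were 72.9% A or T, against 52.8% over the whole transcript, coding exons included. The rest of the 3′ untranslated region was not measured apart, so whether the gap differs from its surroundings is not shown.

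Reads with the gap outnumbered reads that run across it without a break in both libraries, though in replicate 2 the interval of their share included 50%. In replicate 1, 749 reads had the gap and 605 spanned it, a share of 55.3% (Wilson 95% interval 52.7 to 57.9), and 50 reads belonged to models that do not reach both its sides. In replicate 2, 678 reads had it and 632 spanned it, a share of 51.8% (49.0 to 54.5), and 27 did not reach. The mean share was 53.5 ± 2.52% (SD, n = 2). One limit is that each model has recorded ends whatever the ends of its reads, so a read of a model without the gap that stopped before it is counted as spanning it. Another is that the 9 and 6 reads with no intron besides the gap had no counterpart among the reads that span it. The single-exon reads of the gene, 37 and 14, all belonged to models that do not reach both its sides.

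The gap occurred with each of the main splicing patterns of the rest of the molecule. Among reads with the 4 annotated introns, 688 had the gap and 571 did not in replicate 1 (54.6%, Wilson 95% interval 51.9 to 57.4), and 612 and 565 in replicate 2 (52.0%, 49.1 to 54.8). Among reads that skip exon 4, 30 had the gap and 21 did not in replicate 1 (58.8%, 45.2 to 71.2), and 39 and 38 in replicate 2 (50.6%, 39.7 to 61.5). Among reads with the inner site of exon 1, 5 had it and 7 did not in replicate 1 (41.7%, 19.3 to 68.0), and 7 and 9 in replicate 2 (43.8%, 23.1 to 66.8). The intervals of these 3 patterns overlapped in each library. The limit on reads without the gap holds for each of these patterns.

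**Figure D3:**
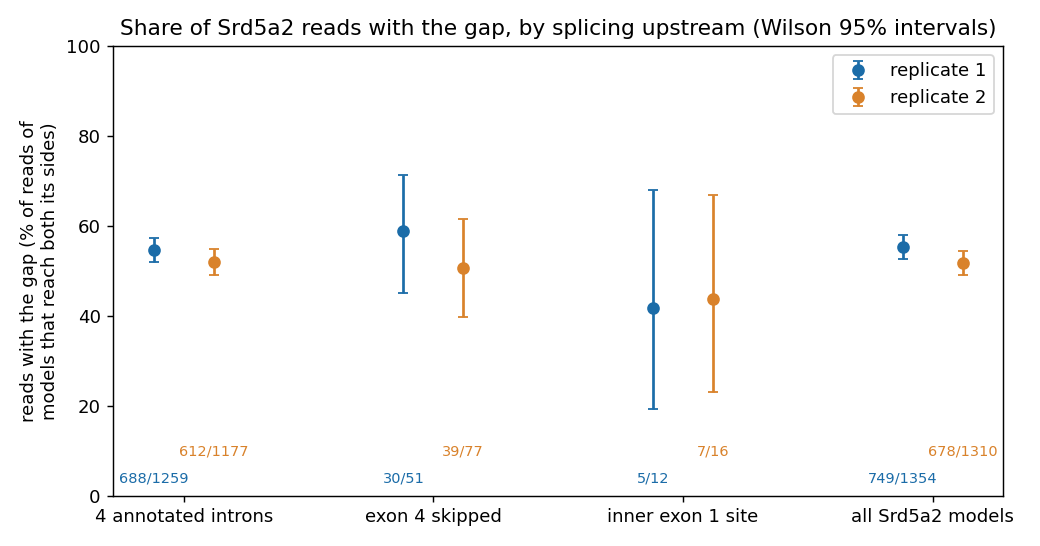
Share of Srd5a2 reads with the gap (percent of reads of models that reach both its sides) by splicing pattern, in replicate 1 (blue) and replicate 2 (orange), with Wilson 95% intervals and the reads with the gap over all such reads printed at the bottom. The points lie between 41.7% and 58.8%, and their intervals overlap.

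The files record a stretch missing from the aligned read in the same way as an intron, and they do not assign reads to the parental genomes of the cross. A stretch removed by splicing and a stretch absent from 1 of the 2 parental alleles therefore cannot be told apart here. Across all genes, 108 unannotated introns had at least 10 reads in each library, and none of the others had more reads than this one in either library. Of the 108, 13 lay inside 1 annotated exon, and the one of Srd5a2 was the single case under 70 bases. Among the 13, the next in length was a stretch of 97 bases in Sfr1, missing from 42.5% and 42.1% of the reads across it, and the next in reads was one of 285 bases in Hnrnpk, with 259 and 140 reads; both genes are named after their values were seen. Of the 12 longer ones, 11 also had GT and AG at their ends. Among 284419 annotated introns of GENCODE M21 the median length was 1484 bases, and 628 (0.221%) had 59 bases or fewer.

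**Figure D4:**
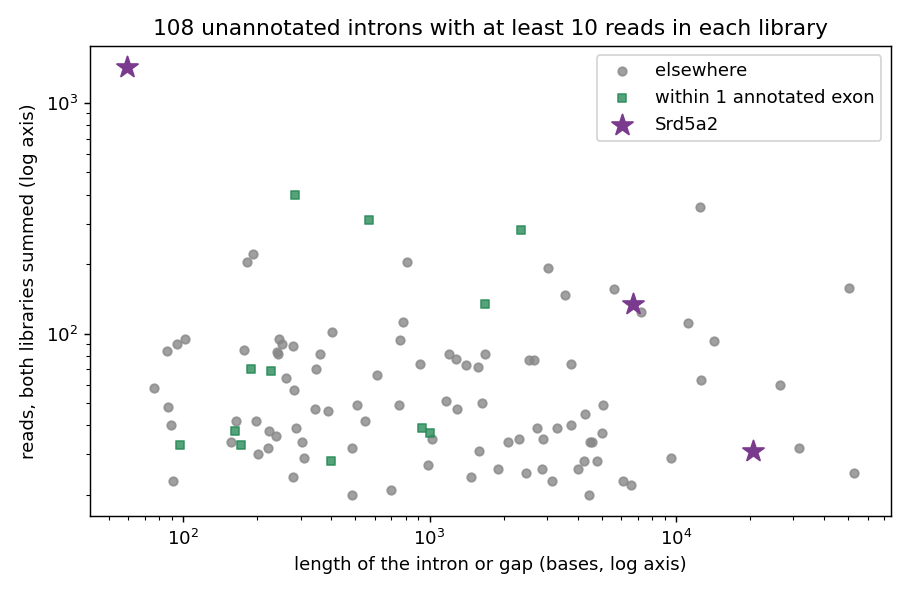
Length in bases and reads summed over both libraries (both log axes) of 108 unannotated introns with at least 10 reads in each library, as green squares where they lie within 1 annotated exon, grey points elsewhere and stars for Srd5a2. The star at the upper left is the gap of 59 bases, which has the most reads, and the other 2 stars are the exon 4 skip and the inner site of exon 1.

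The skipping of exon 4 was the next most frequent event. Exon 4 (74021384 to 74021534) has 151 bases, so its loss shifts the reading frame, and the frame from the annotated start then ends after 207 codons in exon 5. The junction from exon 3 to exon 5 was in 51 of 1344 reads with either junction of exon 3 in replicate 1 (3.79%, Wilson 95% interval 2.90 to 4.95). In replicate 2 it was in 84 of 1302 (6.45%, 5.24 to 7.92). The share was lower in replicate 1 and the intervals did not overlap; no test of this difference was made. Over full-length reads alone the mean share was 2.88%, against 5.12% over all classes, because the skipping reads without the gap, 21 and 38, carry the ISM label.

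The models of these 21 and 38 reads have recorded ends in exon 1 and at the end of the RefSeq gene, as do those of the 7 and 9 reads with the inner site and no gap. All of them are labelled as prefixes, and each chain equals that of a model with the gap except for the gap itself. Whether single reads of these models were truncated is not given by the files.

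The inner 5′ splice site of exon 1 removed the last 244 bases of that exon. It left 37 coding bases and a frame of 28 codons that stops in exon 2. It was used in 12 of 1332 reads that join exon 1 to exon 2 in replicate 1 (0.901%, Wilson 95% interval 0.516 to 1.57) and in 19 of 1282 in replicate 2 (1.48%, 0.951 to 2.30). The removed part begins with GT, as the third sequence shows.

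Other changes were rare. Intron 4 was kept in 5 reads of replicate 1 and 2 of replicate 2. An extra exon of 126 bases within intron 1 was found in 2 reads of each library, a last exon of 324 bases within intron 4 also in 2 reads of each, and a 4-base extension of exon 2 in 3 reads of each. Reads that ended within intron 1 after exon 1 numbered 5 and 6. Starts upstream of exon 1 were seen in 1 read of replicate 1 and 6 of replicate 2, of which 1 and 5 joined exon 2. The remaining read of replicate 2 shared no exon base with the annotated transcript. CT025731.1, a noncoding gene on the same strand whose span overlaps Srd5a2, had 2 and 6 reads of its own. These events rest on a few reads each, too few to compare the libraries.

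Most reads of unannotated Srd5a2 models had a recorded end beyond the annotated 3′ end. Models ending at the end of the RefSeq gene, at 74014891 in replicate 1 and 74014890 in replicate 2, held 812 and 730 reads. That end lies 2064 bases past the GENCODE M21 end. Models that stop at the M21 end held 8 and 28 unannotated reads, and models ending within exon 5 held 6 and 4. Of the 28 reads in replicate 2, 13 belonged to a Genomic single-exon model recorded with a length of 1 base. The last 2 groups, upstream of exon 5 and further downstream, held 7 and 9 reads and 0 and 1 read. A model has a single recorded end for all its reads, and the 571 and 565 Known reads carry the annotated end by construction, so the ends of single molecules are not given by these files.

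**Figure D5:**
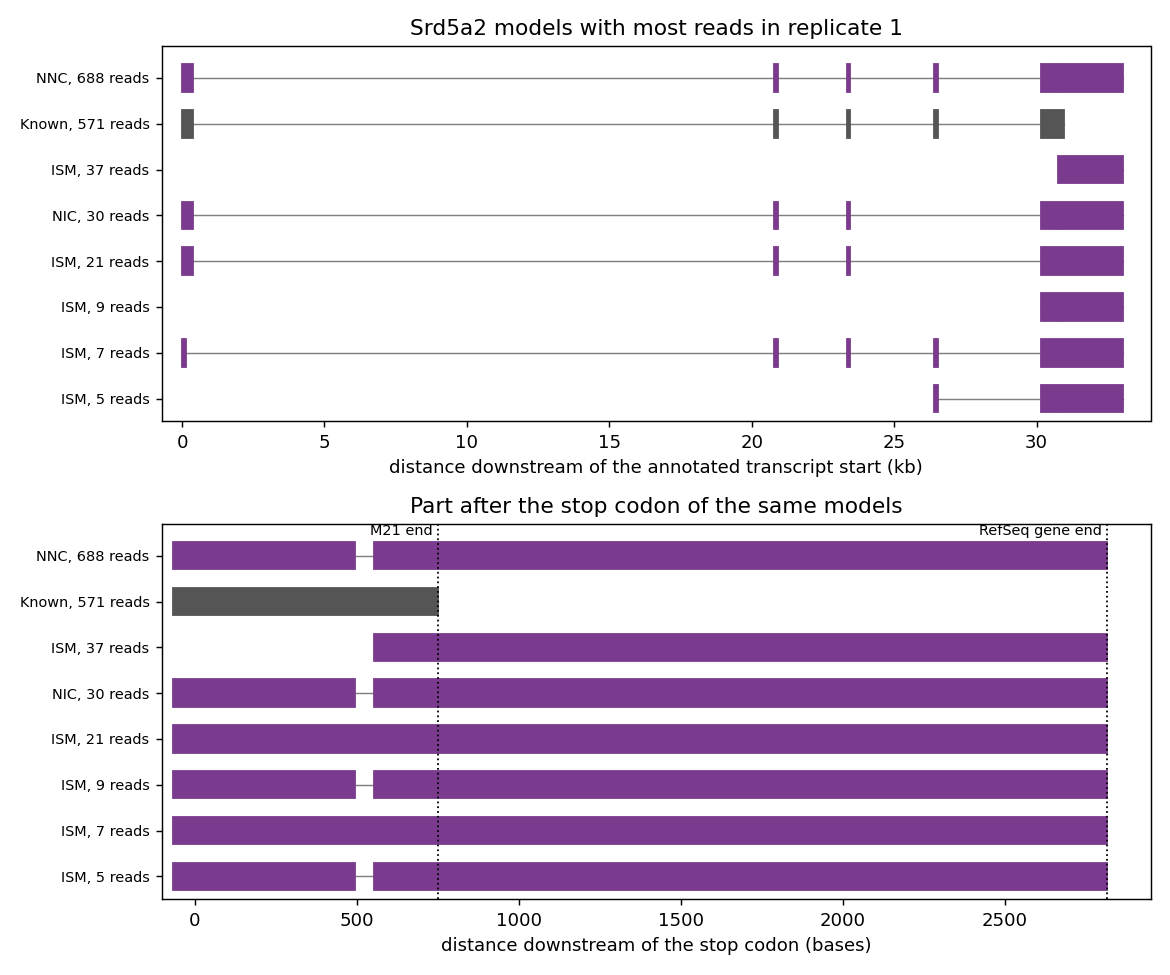
Exons of 8 Srd5a2 models among those with the most reads in replicate 1, by distance from the annotated start in kb (top) and from the stop codon in bases (bottom), grey for the annotated model and purple for the unannotated ones, with class and reads at the left. The gap in the last exon, the loss of exon 4, the shorter exon 1 and the RefSeq gene end beyond the M21 end can be seen.

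Single-exon reads from the 3′ part were filed differently in the libraries. In replicate 1, 37 reads formed an ISM model from 74014891 to 74017150, which begins at the base after the gap and is counted with Srd5a2. In replicate 2, 42 reads formed a same-strand model from 74014890 to 74016298, which was labelled Intergenic and is not counted with the gene. With those 42 reads added, Srd5a2 had 1379 reads or 2977 CPM in replicate 2, against 1404 reads or 3103 CPM in replicate 1. On the opposite strand, unannotated models over the gene held 6 reads in replicate 1 and 18 in replicate 2.

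Srd5a3 and Srd5a1 were read almost wholly as annotated transcripts. Of the Srd5a3 reads, 12 in replicate 1 and 9 in replicate 2 followed Srd5a3-201, and 1 read in each was NNC. The NNC read of replicate 1 lacked an exon of 36 bases and had exon 4 extended by 39 bases, and that of replicate 2 had exon 1 shortened by 46 bases and exon 2 extended by 33. Of the Srd5a1 reads, 4 and 4 followed Srd5a1-202, and 1 read of replicate 2 was a suffix without exon 1. With so few reads, shares of forms in these genes have wide limits: the 4 Known reads of Srd5a1 in replicate 1 allow a Known share as low as 51.0%.

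Genes around the members were read at their own levels. Nsun2, an RNA methyltransferase gene whose span overlaps Srd5a1 on the opposite strand, had 59 and 51 reads. Gm17108 had 1 and 2 reads, Tent4a 7 and 6, and Ube2ql1 1 and 0. Near Srd5a2, Xdh, the xanthine dehydrogenase gene, had 21 and 48 reads. Near Srd5a3, Tmem165, a Golgi protein gene that is also needed for glycosylation, had 30 and 17 reads, Ube2n-ps1 7 and 4, and Clock 2 and 2. The remaining annotated genes within 100 kb of a member had no read.

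Substrates and partners of the reductases were compared from lists, which were drawn up with earlier results in view. Of all 8135 genes tested, 3.16% were called, 139 higher and 118 lower in replicate 1. The median log2 ratio (replicate 1 over replicate 2) of all genes tested was 0.03. Of the 18 androgen and 5α-steroid partners, 9 had reads, and none of those tested was called. Hsd17b10, a mitochondrial hydroxysteroid dehydrogenase, had 80 and 86 reads. Cyp17a1, the enzyme that leads to androgens, had 1 and 3 reads, and Akr1c14, which reduces dihydrotestosterone and other 5α-steroids further, had 0 and 2.

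The genes of corticoid and progestin synthesis, which make the other substrates, were abundant. All 6 were tested and were higher in replicate 1. Their median log2 ratio was 0.29. Their adjusted p-values lay between 5.40e-73 (Star) and 0.00322 (Cyp11b1) by Fisher's exact test, but every difference was under 2-fold, so none was called. Cyp11a1, which starts steroid synthesis from cholesterol, had 27391 and 23449 CPM, and Cyp11b1, which makes corticosterone, had 5437 and 4860 CPM. Star, the cholesterol carrier, had 11196 and 7502 CPM, and Cyp21a1 14672 and 11535 CPM. Hsd3b1, which makes progesterone from pregnenolone, had 6550 and 5803 CPM, and Cyp11b2, the aldosterone synthase, 491 and 274 CPM.

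Of 9 other genes that reduce or inactivate steroids, 5 had reads, 2 were tested and 1 was called. Cyp3a11, a steroid hydroxylase abundant in liver, had 0 reads in replicate 1 and 15 in replicate 2 (Fisher's exact test, adjusted p = 0.00184). It was called along with the liver markers, which had 3 and 238 reads, and their part in this call was not tested. Hsd11b1, which regenerates active corticosteroid, had 42 and 81 reads (log2 ratio of -0.91, adjusted p = 0.0169 by Fisher's exact test), under the 2-fold limit. Tecr, an enoyl reductase of fatty acid elongation and a relative of the 5α-reductases, had 326 and 287 reads, and Tecrl had none.

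NADPH supply and microsomal electron transfer were measured through 8 genes, all tested, with a median log2 ratio of 0.20. None was called, against 3.16% of all genes tested, and in so short a list this says little. Me1, the cytosolic malic enzyme, had 617 and 476 reads, and Por, which passes electrons to microsomal cytochromes P450, had 152 and 98. Their adjusted p-values were 0.000134 and 0.00905 by Fisher's exact test, but the differences were under 2-fold (log2 ratios of 0.41 and 0.66). Cyb5r3 had 260 and 238 reads, Cyb5a 127 and 142, Idh1 126 and 119, and Pgd 152 and 196. H6pd had 38 and 33 reads and G6pdx 40 and 26.

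The dolichol pathway, to which Srd5a3 belongs, had 395 and 412 reads over its listed genes. Of its 15 genes, 14 had reads and 13 were tested, with a median log2 ratio of 0.14. None was called, against 3.16% of all genes tested, which says little for a list of this length. Dhdds and Nus1, the subunits of the enzyme that makes polyprenol, had 8 and 7 reads and 23 and 17 reads. Dolk, the dolichol kinase, had 31 and 26 reads, and Dpagt1, which starts the glycan, had 16 and 14. The sugar transferases Alg1, Alg2 and Alg5 had 21 and 34, 73 and 55, and 42 and 49 reads. Alg14, a subunit of a sugar transferase, had 13 and 15 reads. The dolichol-phosphate mannose synthase genes Dpm1, Dpm2 and Dpm3 had 42 and 55, 28 and 26, and 36 and 53 reads, Mpdu1 54 and 49, and the phosphatase Dolpp1 7 and 11. Alg13 had 1 read in each library and Dhrsx none.

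The genes with levels most like Srd5a2 over the 2 libraries were found by the Euclidean distance over log2(CPM + 1). They were Fads2, a fatty acid desaturase (1348 and 1241 reads, distance 0.122), Apoe, a lipid carrier protein (1412 and 1467 reads, 0.134), and Thrsp, a lipogenic factor (1257 and 1345 reads, 0.160). Atp5b, a subunit of ATP synthase (1394 and 1563 reads, 0.225), and Scarb1, the receptor that takes up cholesterol from high-density lipoprotein (1726 and 1391 reads, 0.303), came next. With only 2 libraries the distance measures a like level and little else.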

How the data were processed

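Per the labels, adrenal RNA of 1 group was sequenced as 2 long-read libraries. The authors deposited whole-number read counts per transcript model, with no normalization, and per the file headers assigned models and classes in TALON's columns on mm10 with GENCODE M21. The sources used here give no version for the aligner or TALON. Replicate 1 held 458001 reads (452489 endogenous) and replicate 2 held 479002 (463210), and 1.20% and 3.30% were spike-ins, which were left out. 1 read was worth 2.21 and 2.16 CPM.

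Reads were summed per annotated gene over all classes (Python 3.11.15, pandas 2.3.3, scipy 1.17.1). Forms were matched by intron chain. Fisher's exact tests with Benjamini-Hochberg adjustment ran over all genes with 10 reads summed (levels) or 50 in each library (shares). They were tried on simulated data that held counting error only, so other variation between libraries was not covered. edgeR 4.0.16 and DESeq2 1.42.0 supplied alternative scales only. RefSeq gave the second gene end. The members and lists were chosen with earlier results of these data known. Named genes were all members, listed genes with 10 reads summed or called, the 5 nearest by level, and genes within 100 kb. Some listed genes under that limit, such as Cyp17a1 and Akr1c14, were named as well, by no fixed rule. Other genes are marked where named. One listed gene is not reported here. No genome sequence was used.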

Additional observations from a re-analysis of the deposited data

Results flagged for a closer look

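A same-strand single-exon model beyond the annotated 3′ end of Srd5a2 had 42 reads in replicate 2 and none in replicate 1. It was singled out because it lies in data that the gene totals do not use, above the limit that a count of 0 allows. Replicate 1 has 37 reads in a single-exon model that overlaps it and is counted with the gene.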

How the results depend on the processing

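Of the values recomputed under other settings, 48 stayed within their limits and 20 moved. For levels and shares the limit was the SD between the libraries around their mean. A single library always lies within that limit, so leaving out a library could not move a value. Only the difference of Srd5a2 between the libraries could change sign, and it did not. The mean level of Srd5a2 was 3428 CPM over full-length reads, 1668 CPM over Known reads and 3154 CPM without Genomic reads. That of Srd5a1 was 11.7 CPM over Known reads, and that of Srd5a3 was 30.9 CPM over full-length and 30.8 CPM over Known reads. Srd5a2 took 97.5% of the family's Known reads. Its full-length share was 93.5% without Genomic reads and 99.5% with ISM reads counted as full-length. Its leading form had 47.6% of full-length and ISM reads, and among Known reads alone the leading form is the annotated one, at 100%. Exon 4 skipping over full-length reads came to 2.88%. Genes called between the libraries numbered 160 at 50 reads summed and 525 at any fold, against 257. Genes with another full-length share numbered 25 without Genomic reads and 7 at any difference, against 2, and those with another leading share 20 with ISM reads and 7 at any difference, against 3. Unannotated introns numbered 275 at 5 reads in each library and 54 at 20, against 108. The settings for the gap, exon 4 skipping and unannotated introns, and the added 42 reads, were chosen after seeing the data. The adjusted p of Srd5a2 between the libraries ranged from 0.201 to 0.832 (Fisher's exact test), and it was not called at any setting. Where the cause is not set by the reads left out or the threshold itself, the cause was not tested.

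No paired analysis was possible because both libraries belong to 1 group. Depth limits Srd5a1 and Srd5a3, whose counts allow no statement on rare forms.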
